A study of Mus musculus with 16 samples.

Results

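Integrins are cell surface receptors that link the cytoskeleton to the extracellular matrix or to other cells. Each receptor is a dimer of an alpha and a beta subunit, and the pair determines whether it binds collagen, laminin, proteins with an RGD motif such as fibronectin and vitronectin, or counter-receptors on other cells. Laminins are trimers of an alpha, a beta and a gamma chain that polymerize into the basement membrane around epithelium, muscle, fat, nerve and blood vessels. Osteoblasts and osteosarcoma cells attach to a matrix rich in type I collagen, fibronectin and osteopontin, while white blood cells carry their own integrins built on the *Itgb2* and *Itgb7* subunits.

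The expression of integrin subunit and laminin chain genes was examined in 16 mouse osteosarcomas. The genes were chosen by symbol among protein-coding genes of the raw count table, and 36 of 25054 genes are described, 26 integrin subunits and 10 laminin chains. The symbol rule uses no expression value, but the genes were chosen with earlier results of these data known. Mice of both groups carried the OsxCreERT2 transgene, whose Cre is active in *Osterix*-expressing cells of the bone lineage once tamoxifen is given, together with p53fl/fl and Rb1fl/fl alleles. They received tamoxifen intraperitoneally at 400 ug/g at 1 month of age and were over 6 months old, of both sexes. The 8 tumors labeled KO came from OsxCreERT2+/-;p53fl/fl;Rb1fl/fl;Arid1afl/fl mice, 1 tumor from each of 8 mice. The 8 tumors labeled WT came from OsxCreERT2+/-;p53fl/fl;Rb1fl/fl mice, and the animal codes in their titles point to 4 mice, with 4 tumors taken from N42, 2 from N43 and a single tumor from both N215 and N25. A lung label is given for the N25 sample, while the series describes this genotype as non-metastatic.

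The libraries held between 1109487 counts (Massa) and 15059640 counts (Prince) in KO and between 7806160 and 16962329 counts in WT. Levels are given as CPM, counts per 1000000 counts of the TMM-scaled library. A count of 3 corresponded to between 0.203 and 6.69 CPM in KO and to between 0.146 and 0.340 CPM in WT, so low levels were seen less well in KO. *Arid1a* itself, counted over the whole gene, averaged 187 CPM in KO and 167 CPM in WT, and its log2 fold change was 0.16 (edgeR adjusted p = 0.715). Such a count includes exons outside the floxed part, and the groups are called KO and WT here after their labels. Markers of the bone lineage were present in every tumor, but their summed level ranged from 717 CPM in Prince to 84108 CPM in N42 L shoulder. The median sum was 7412 CPM in KO and 56319 CPM in WT. Of the 10 markers 8 had a log2 fold change below 0 and 2 above 0, and 0 passed the edgeR threshold. Other tissues were prominent in single tumors: skeletal muscle markers summed to 80964 CPM in Montana and 141050 CPM in Oregon, lung markers to 12091 CPM in Massa and 26614 CPM in N25 lung, salivary gland markers to 35836 CPM in Prince, and liver markers to 1358 CPM in Zelda. Ribosomal RNA content was followed with a list of 4 genes, *CT010467.1*, *Gm23935*, *Lars2* and *Mir6236*. Their levels summed to 608080 CPM in Grilka and 451390 CPM in Massa against at most 17838 CPM in WT (N215 R hind limb). Oregon, Medusa and Prince, at 177240, 125920 and 40444 CPM, were also above every WT tumor. The median sum was 83182 CPM in KO and 1394 CPM in WT, and all 4 genes were called higher in KO (edgeR adjusted p under 0.05). Because CPM refer to the TMM-scaled library, these are not shares of the raw counts. Those shares were 24.982% in Grilka, 18.24% in Massa and 2.0145% in N215 R hind limb. In bulk tumor RNA, fewer cells of a type and less RNA per cell cannot be told apart.

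Of the 36 genes 34 passed the filter on low counts, and 1 of them, *Itgam*, differed between KO and WT at an adjusted p under 0.05 (edgeR quasi-likelihood test over 15413 genes). That test called 4.01% of all genes tested and 2.15% as lower and 1.86% as higher in KO, so the share of integrin and laminin genes called was close to the background. DESeq2 called 6 of the 36, 5 lower and 1 higher, where it called 12.5% of all genes, 4.77% as lower and 7.76% as higher. Without the N25 and N215 tumors edgeR called 4 of 34, 3 lower (*Itgam*, *Itga5* and *Itgav*) and 1 higher (*Lamb3*), where it called 9.46% of all genes, 4.05% as lower and 5.41% as higher. At an unadjusted p under 0.05, 8 of the 34 were lower in KO (*Itgam*, *Itga5*, *Itgav*, *Itgb2*, *Itgb5*, *Itga11*, *Lamb1* and *Lamc1*) and 1 was higher (*Itga7*), where the same rule took 9.75% of all genes as lower and 13.3% as higher. The fitted log2 fold change was below 0 for 22 of the 34, against 44.1% of all genes tested. Its median was -0.41 over the 34 genes, -0.36 over the 24 integrin genes and -0.48 over the 10 laminin genes, against 0.10 over all genes tested. For none of the 36 genes did the 8 KO values lie wholly apart from the 8 WT values, a pattern found in 0.415% of the genes tested. High expression in single tumors was frequent: 20 of the 36 reached over 5 times their median in their highest tumor, with at least 50 counts there, which 20.9% of all genes tested did. The 20 include *Itgad* and *Itgae*, which did not pass the filter, while the 20.9% covers only genes that did.

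**Figure D1:**
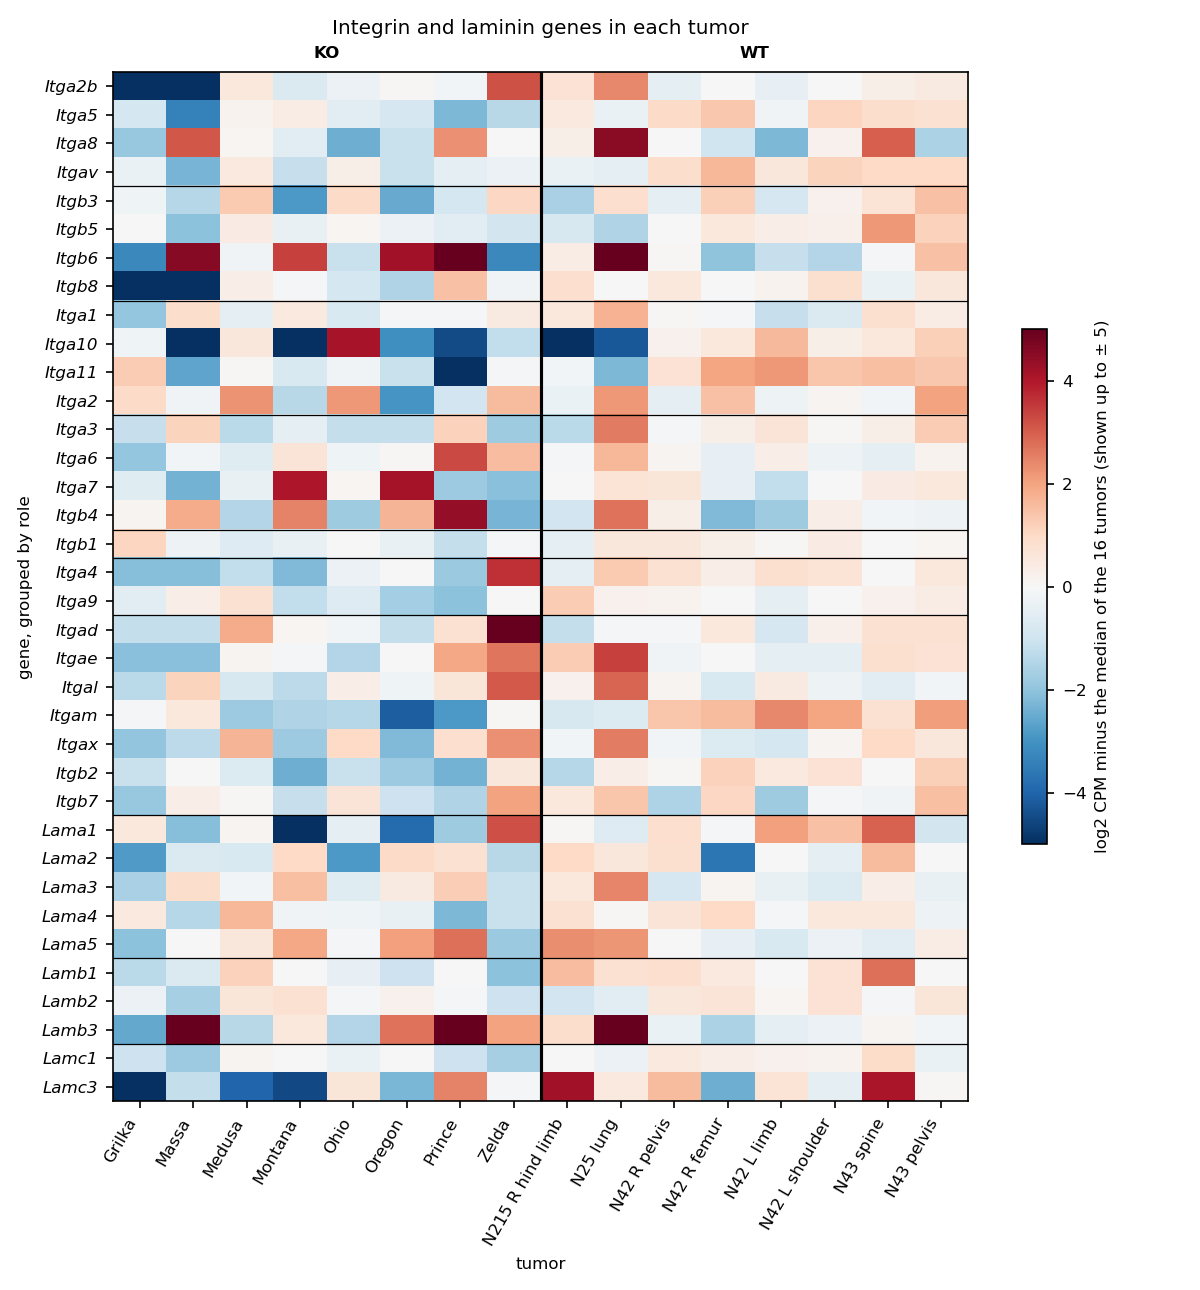
Each row is 1 of the 36 genes, grouped by role between the horizontal lines, and each column is 1 tumor, with the 8 KO tumors on the left and the 8 WT tumors on the right. The color is log2 CPM minus the gene's median over the 16 tumors, and single dark red cells mark genes that were high in 1 to 3 tumors, such as *Itga10* in Ohio, *Itga7* in Montana and Oregon, *Itga4* in Zelda and *Lamb3* and *Itgb6* in Massa, Prince and N25 lung.

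**Figure D2:**
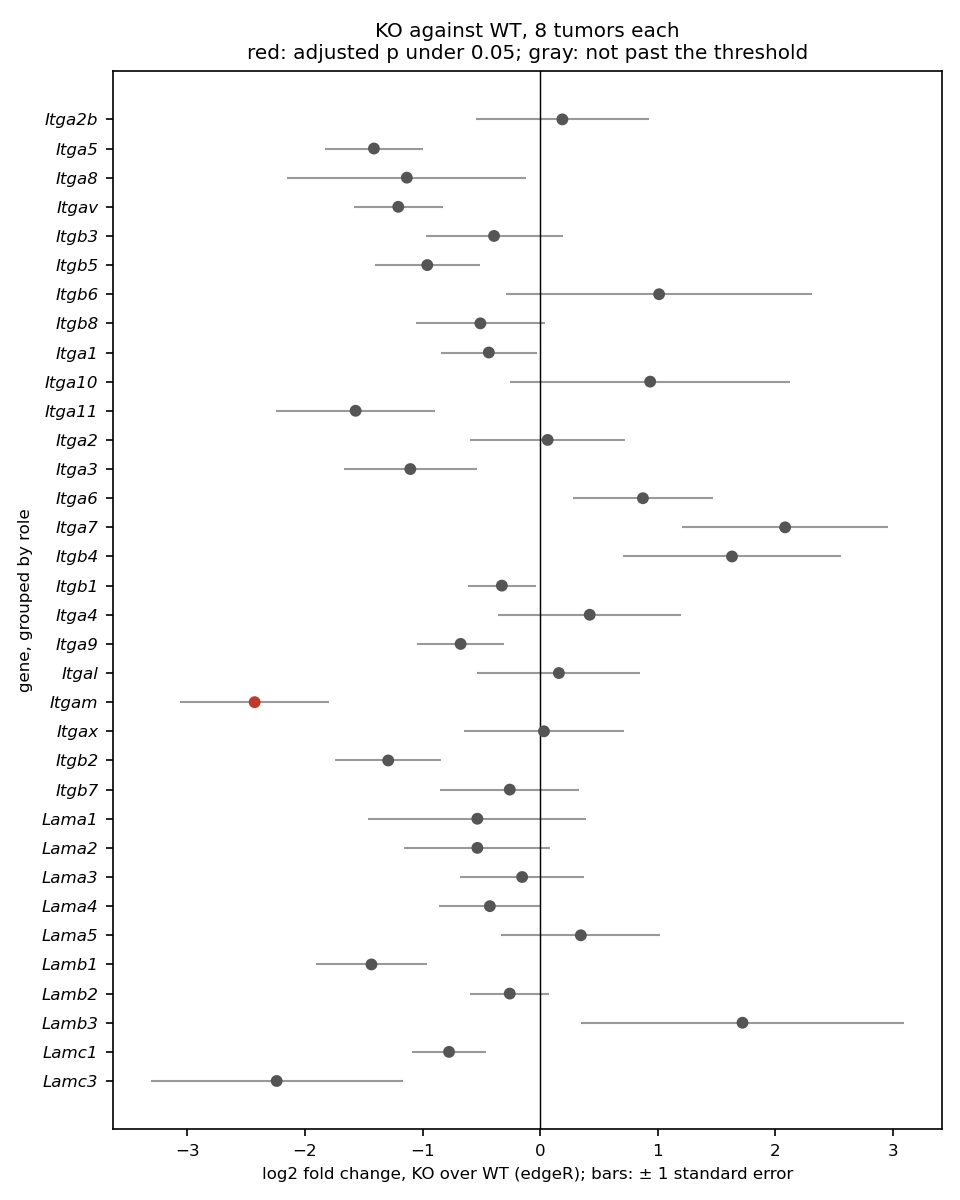
Each point is the log2 fold change of KO over WT of 1 of the 34 tested genes, in the same order of roles, and the bars are 1 standard error. *Itgam*, in red at -2.43, is the gene past the threshold.

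The leukocyte integrins pair an alpha subunit with *Itgb2* or *Itgb7*. *Itgam* (chromosome 7, 128062640 to 128118491, plus strand, GRCm38) encodes CD11b, the alpha subunit of the complement receptor of macrophages, neutrophils and other myeloid cells. It was at 0.559, 1.58, 3.38, 4.34, 4.48, 12.1, 12.9 and 17.8 CPM in the KO tumors, in rising order, and at 7.03, 7.81, 21.0, 33.1, 37.7, 49.9, 53 and 67.5 CPM in the WT tumors. All 8 KO tumors lay below the WT median of 35.4 CPM, and the groups overlapped through 3 KO tumors (Grilka, Zelda and Massa) and the WT tumors N215 R hind limb and N25 lung. *Itgam* was lower in KO by a log2 fold change of -2.43 (SE 0.63, edgeR adjusted p = 0.0408). The 4 tumors of N42 count as 4 samples in this test. With the counts summed per mouse the log2 fold change was -1.86 and the adjusted p was 0.598, and without the N42 tumors the values were -1.71 and 0.617. Leaving out single tumors gave log2 fold changes from -2.74 to -2.21. *Itgam* stayed past the threshold without Massa, Grilka, Zelda, N215 R hind limb or N25 lung, and missed it without any 1 of the other 11 tumors (adjusted p from 0.0547 to 0.0838). In the annotation 68.67% of the exon bases of *Itgam* also belong to *Gm49368*, a read-through gene on the same strand, and counting both as 1 gene gave -2.44 (adjusted p = 0.0403).

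The promoter of *Itgam* is shown because it belongs to the gene past the threshold, and that of *Itgax*, its neighbor on chromosome 7, because it encodes a related myeloid subunit that did not follow. Both are RefSeq windows on GRCm38.p6, from 250 bases before to 50 bases after the start, read 5′ to 3′ on the plus strand. Capitals mark GAGGAA, the core bound by the myeloid factor PU.1, on either strand in *Itgam*, and TGANTCA, the AP-1 motif, in *Itgax*. The *Itgam* window is chr7:128062390-128062689 and the *Itgax* window is chr7:128129300-128129599.
Itgam: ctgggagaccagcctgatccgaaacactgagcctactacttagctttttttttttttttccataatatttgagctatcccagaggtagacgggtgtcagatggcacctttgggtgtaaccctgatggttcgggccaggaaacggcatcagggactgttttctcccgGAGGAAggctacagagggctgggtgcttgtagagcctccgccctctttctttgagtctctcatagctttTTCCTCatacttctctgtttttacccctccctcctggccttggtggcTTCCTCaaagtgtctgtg
Itgax: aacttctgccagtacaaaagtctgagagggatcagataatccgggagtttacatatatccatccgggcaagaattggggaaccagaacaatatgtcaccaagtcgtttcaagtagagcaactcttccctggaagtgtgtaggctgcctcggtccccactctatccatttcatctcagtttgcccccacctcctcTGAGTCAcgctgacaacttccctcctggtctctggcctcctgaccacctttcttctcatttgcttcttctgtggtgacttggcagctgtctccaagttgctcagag
The *Itgam* window held 3 matches to GAGGAA and none to TGANTCA. The *Itgax* window held none to GAGGAA and 1 to TGANTCA. On both strands GAGGAA occurred in 28.3% and TGANTCA in 7.81% of 32851 promoter windows of this length. The cores AACAAT (SOX factors) and TGTGGT (RUNX factors) were also searched, and occurred in 10.7% and 16.8% of the windows, in 1 copy each in *Itgax* and in none in *Itgam*. No matches of different motifs overlapped in either window. Windows were at hand for 23 of the 36 genes, 26 windows in all, and GAGGAA occurred in 14 of these (53.8%), among them those of *Itgav* and *Itga2b* with 2 copies each.

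*Itgax* encodes CD11c of dendritic cells and macrophages. It ranged from 1.12 to 29.2 CPM in KO (median 6.43) and from 3.08 to 35.4 CPM in WT (median 5.83), with Zelda and N25 lung as the highest tumors, and its log2 fold change was 0.03 (SE 0.68, edgeR adjusted p = 0.985). *Itgb2*, the common beta subunit CD18, ranged from 6.89 to 56.5 CPM in KO (median 17.5) and from 14.3 to 88.4 CPM in WT (median 51.4). For *Itgb2* 7 of the 8 KO tumors lay below the WT median, but the groups overlapped, and the log2 fold change of -1.29 (SE 0.45) did not pass the threshold (adjusted p = 0.10). Without Zelda it was -1.70 and passed (adjusted p = 0.0229). *Itgal*, the alpha subunit of lymphocyte LFA-1, was at 60.9 CPM in Zelda and 54.9 CPM in N25 lung and between 2.69 and 15.6 CPM in the other 14 tumors (log2 fold change 0.16, SE 0.69, adjusted p = 0.920). *Itgb7*, the beta subunit of gut-homing lymphocytes, was highest in Zelda at 42.9 CPM and otherwise between 2.69 and 30.2 CPM (log2 fold change -0.26, SE 0.59, adjusted p = 0.837). *Itgad* and *Itgae* were too low to be tested. *Itgad*, a subunit of certain tissue macrophages, had 413 counts (28.0 CPM) in Zelda and at most 1.27 CPM elsewhere. *Itgae*, the CD103 subunit of intraepithelial T cells, had 120 counts (7.75 CPM) in N25 lung and 4.54 CPM in Zelda.

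In the fit over single tumors, macrophage markers were lower in KO together with *Itgam*. All 10 macrophage markers were measured, and 9 of them were lower in KO in the same test, among them *Mrc1* (log2 fold change -2.33, adjusted p = 0.00530) and *C1qa* (-2.30, adjusted p = 0.00476). Their summed level ranged from 147 to 588 CPM in KO (median 307) and from 349 to 1867 CPM in WT (median 1624), and none of the 10 was at 0 except 3 in Massa. Both WT tumors with low *Itgam*, N25 lung and N215 R hind limb, also had the lowest sums of the WT tumors, 349 and 522 CPM. Both sums lay within the KO range. The WT sums above that range, 1278 to 1867 CPM, all came from the tumors of N42 and N43. The test counts these tumors as separate samples, and no result per mouse is given for the markers. Massa had the highest *Itgam* of the KO tumors beside the lowest sum. Its 17.8 CPM rest on 8 counts. Of 8 neutrophil markers, whose cells also carry CD11b, 4 were tested and none passed, with a median log2 fold change of 1.06. Their sums were highest in Zelda (465 CPM), N25 lung (242 CPM) and Massa (156 CPM), and at most 80.1 CPM in the other 13 tumors. T and B lymphocyte markers summed to 529 CPM in Zelda and 78.2 CPM in N25 lung, the highest tumors for *Itgal*, and to at most 11.7 CPM in the other 14. None of the 8 lymphocyte markers passed the filter on low counts. The part of these cells in the results was not tested.

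**Figure D3:**
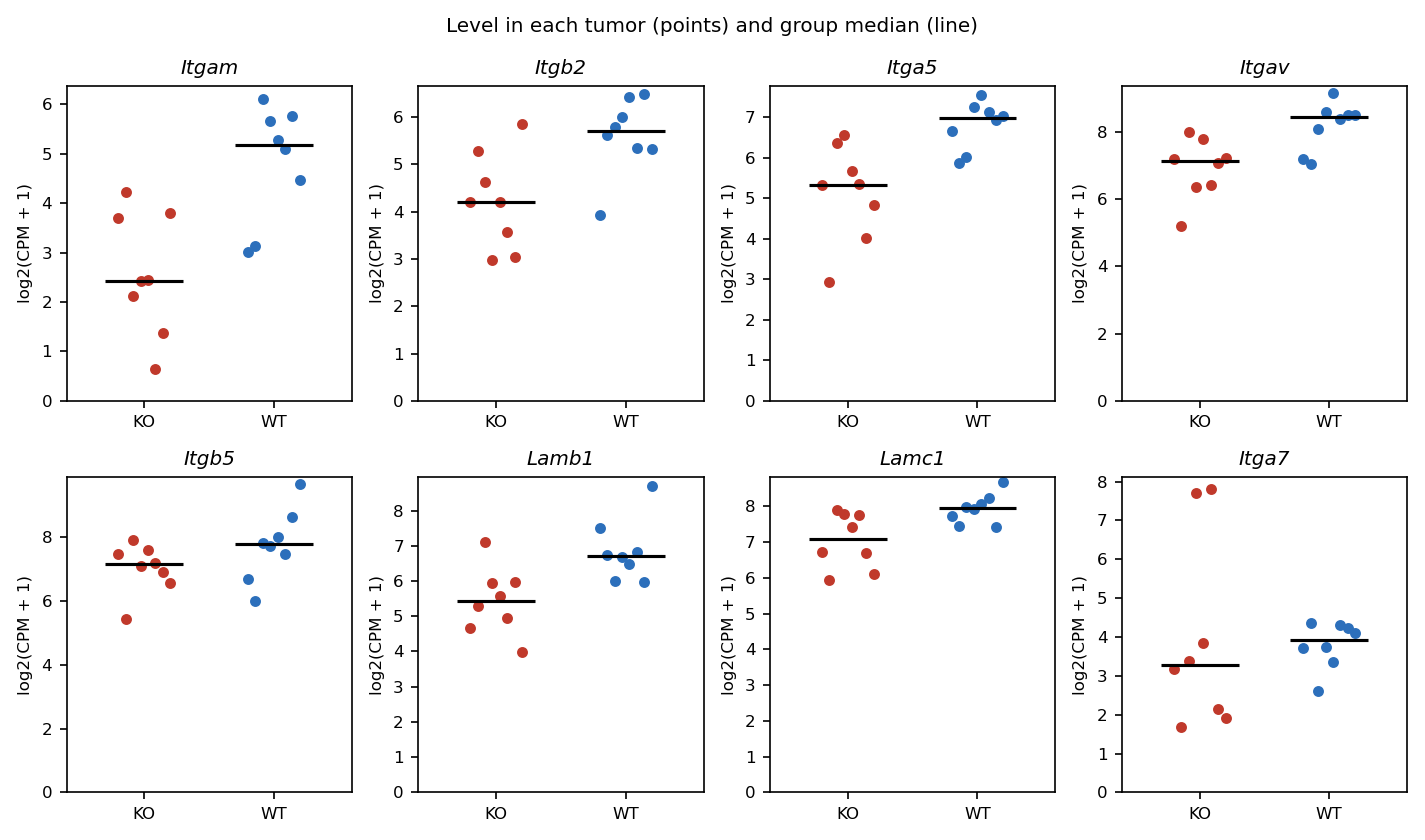
Each point is the level of a gene in 1 tumor as log2(CPM + 1), red for KO and blue for WT, and the black line is the group median. *Itgam*, *Itgb2*, *Itga5*, *Itgav*, *Itgb5*, *Lamb1* and *Lamc1* had lower medians in KO with overlapping groups, while *Itga7* was high in 2 KO tumors and not in the other 6.

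Receptors for RGD proteins were led by *Itgav* and *Itga5*. *Itgav*, the alpha-v subunit that pairs with several beta subunits to bind vitronectin, osteopontin and latent TGF-beta, ranged from 35.7 to 257 CPM in KO (median 139) and from 132 to 574 CPM in WT (median 345). All 8 KO tumors lay below the WT median, and 3 of them lay below every WT tumor. The log2 fold change was -1.21 (SE 0.38, edgeR adjusted p = 0.0752). *Itga5*, which forms the main fibronectin receptor with *Itgb1*, ranged from 6.69 to 92.3 CPM in KO (median 39.3) and from 57.2 to 184 CPM in WT (median 126). In 6 KO tumors the level was below that of every WT tumor, and the log2 fold change was -1.41 (SE 0.42, adjusted p = 0.0609). Neither passed the threshold with all tumors. Without N25 lung both did, *Itgav* at -1.32 (edgeR adjusted p = 0.0477) and *Itga5* at -1.52 (adjusted p = 0.0438), and *Itga5* did so without Montana (-1.66, adjusted p = 0.0435). *Itga8*, a nephronectin receptor, was at 246 CPM in N25 lung, 91.4 CPM in Massa, 84.8 CPM in N43 spine and 52.3 CPM in Prince, and at 13 CPM or less in the other 12 tumors (log2 fold change -1.13, SE 1.02, adjusted p = 0.539). *Itga2b*, the fibrinogen receptor subunit of platelets, was at 51.7 CPM in Zelda and 30.1 CPM in N25 lung and at most 9.41 CPM elsewhere (0.19, SE 0.73, adjusted p = 0.911). The same 2 tumors had the highest sums of platelet markers, 141 and 86.2 CPM, and the part of these cells was not tested.

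The beta subunits that pair with alpha-v fell into broadly expressed and tumor-restricted genes. *Itgb5*, a vitronectin receptor subunit, ranged from 42.4 to 237 CPM in KO (median 141) and from 62.9 to 801 CPM in WT (median 217), with N43 spine highest (log2 fold change -0.96, SE 0.45, edgeR adjusted p = 0.210). *Itgb3*, the beta subunit of the osteoclast and platelet receptors, spanned 7.14 to 133 CPM in KO and 17.6 to 150 CPM in WT (-0.39, SE 0.58, adjusted p = 0.734). *Itgb8*, which activates latent TGF-beta, did not exceed 14.6 CPM outside Prince, where it was at 22.9 CPM (-0.51, SE 0.55, adjusted p = 0.617). *Itgb6*, a subunit largely restricted to epithelium, was at 72.1 CPM in Prince, 67.7 CPM in N25 lung, 37.9 CPM in Massa, 29.1 CPM in Oregon and 17.1 CPM in Montana, and at most 4.26 CPM in the other 11 tumors (1.01, SE 1.30, adjusted p = 0.687).

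Of the collagen receptor subunits *Itga11* and *Itga10* were the most abundant per kb of exon in WT. *Itga11*, a fibroblast and osteoblast receptor for fibrillar collagen, ranged from 0.664 to 101 CPM in KO (median 31.1) and from 8.84 to 188 CPM in WT (median 110). All 8 KO tumors lay below the WT median (log2 fold change -1.57, SE 0.67, edgeR adjusted p = 0.174). It was lowest in Prince, Massa and N25 lung, which had osteoblast marker sums of 717, 2998 and 2910 CPM. Oregon and Montana had sums of 2773 and 2527 CPM with *Itga11* at 19.6 and 24.5 CPM. The *Itga11* value in Massa rests on 3 counts. Whether the bone-lineage content plays a part was not tested. *Itga10*, the type II collagen receptor of chondrocytes, was at 1588 CPM in Ohio (16647 counts), between 38.6 and 284 CPM in 9 other tumors, and between 2.04 and 10.6 CPM in the remaining 6. Its log2 fold change was 0.93 (SE 1.19, adjusted p = 0.683), and it was -1.65 without Ohio (adjusted p = 0.313). *Itga1*, a collagen IV receptor subunit of vessels and mesenchyme, spanned 17.5 to 222 CPM with N25 lung highest (-0.44, SE 0.41, adjusted p = 0.555). *Itga2*, the collagen I receptor of platelets and epithelium, spanned 0.839 to 35.9 CPM (0.06, SE 0.66, adjusted p = 0.969).

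The high level of *Itga10* in Ohio was shared by the genes around it. Within 1 Mb of *Itga10* on chromosome 3, 45 other protein-coding genes were tested, and their CPM in Ohio was a median of 4.57 times their median in the other 15 tumors, where the median ratio over all genes was 0.960. The ratio was over 3 for 31 of the 45, against 5.01% of all genes, and 29 of the 45 were at their highest of the 16 tumors in Ohio, against 5.19% of all genes. Examples, chosen after their values were seen, are *Prpf3*, a splicing factor, at 463 CPM against at most 64.2 CPM in any other tumor, *Rbm8a*, a subunit of the exon junction complex, at 155 CPM against 37.9 CPM, and *Bcl9*, a co-activator of beta-catenin 539 kb after it, at 619 CPM against 90.0 CPM. On that side *Bcl9* was the last gene at its highest in Ohio, and the next, *Chd1l* at 896 kb, had a ratio of 1.90 and was higher in another tumor. On the other side *Mcl1*, an inhibitor of cell death near the edge of the window, was still at its highest in Ohio with a ratio of 2.82. Within this stretch some genes were not raised: *Txnip*, upstream of *Itga10*, was at 110 CPM against a median of 616 CPM. Of these 45 genes *Gm42957* overlaps the exons of *Itga10* (33.53% of its exon bases), so their counts cannot be separated. The same ratio over the neighbors of the other 19 genes that stood out in 1 tumor ranged from 0.379 to 1.48.

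**Figure D4:**
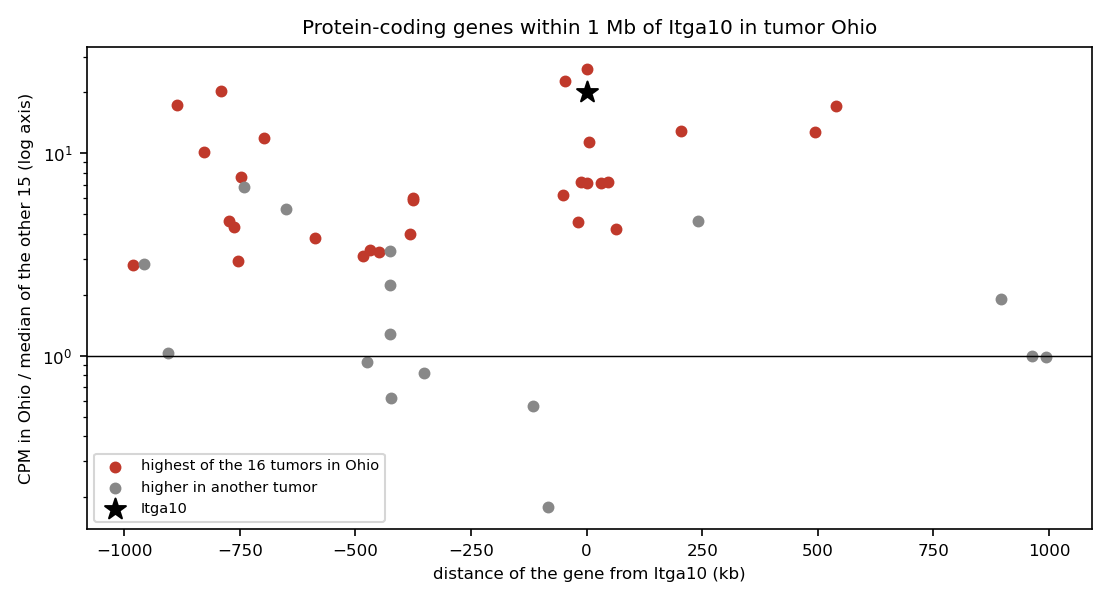
Each point is 1 of the 45 tested protein-coding genes within 1 Mb of *Itga10*, placed by its distance in kb, with its CPM in the KO tumor Ohio over the median of the other 15 tumors on a log axis. Red points, 29 of the 45, were at their highest of the 16 tumors in Ohio, and the star is *Itga10* itself at 20.1.

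Among the laminin receptors, *Itga7* was high in 2 KO tumors, and *Itga6* and *Itgb4* had the same highest tumor. *Itga7*, the laminin receptor of skeletal muscle fibers, was at 222 CPM in Oregon and 206 CPM in Montana, at 2.23 to 13.3 CPM in the other 6 KO tumors, and at 5.10 to 19.7 CPM in WT. The fitted log2 fold change of 2.1 (SE 0.88, edgeR adjusted p = 0.168) rested on these 2 tumors and was -1.06 without them (adjusted p = 0.198). Both tumors also held the highest muscle marker sums, 141050 and 80964 CPM against at most 7301 CPM elsewhere, and the part of muscle in the level was not tested. *Itga6*, which pairs with *Itgb4* in the hemidesmosomes that anchor epithelium, was at 407 CPM in Prince and spanned 10.7 to 132 CPM elsewhere (0.87, SE 0.59, adjusted p = 0.396). *Itgb4* was at 132 CPM in Prince, 40.4 CPM in N25 lung and 34.4 CPM in Montana, and spanned 1.09 to 22.3 CPM in the others (1.63, SE 0.93, adjusted p = 0.301). *Itga3*, a laminin receptor of epithelium, was at 149 CPM in N25 lung and spanned 6.92 to 59.7 CPM elsewhere (-1.10, SE 0.57, adjusted p = 0.251).

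*Itgb1*, the common partner of most alpha subunits, had the smallest spread of the 34 genes among the 8 KO and among the 8 WT tumors (standard deviations of log2 CPM 0.64 and 0.33). It ranged from 155 to 740 CPM in KO (median 284) and from 259 to 525 CPM in WT (median 404), with a log2 fold change of -0.33 (SE 0.29, edgeR adjusted p = 0.535). *Itga9*, a receptor for tenascin and osteopontin, spanned 16.7 to 118 CPM in KO and 50.7 to 167 CPM in WT (-0.68, SE 0.37, adjusted p = 0.284). *Itga4*, which with *Itgb1* forms the VCAM1 receptor of lymphocytes and other blood cells, was at 383 CPM in Zelda (5651 counts), at 6.38 to 29.4 CPM in the other 7 KO tumors and at 22.2 to 75.8 CPM in WT. Because of that tumor its fitted log2 fold change was positive, 0.42 (SE 0.78, adjusted p = 0.794). Without Zelda it was -1.70 and past the threshold (adjusted p = 0.0160), and DESeq2, which replaces extreme counts, gave -1.45 (adjusted p = 0.00534). Part of *Itga4* (8.04% of its exon bases) overlaps *Cerkl* on the opposite strand, and whether the counting used strand is not given in the sources used here.

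**Figure D5:**
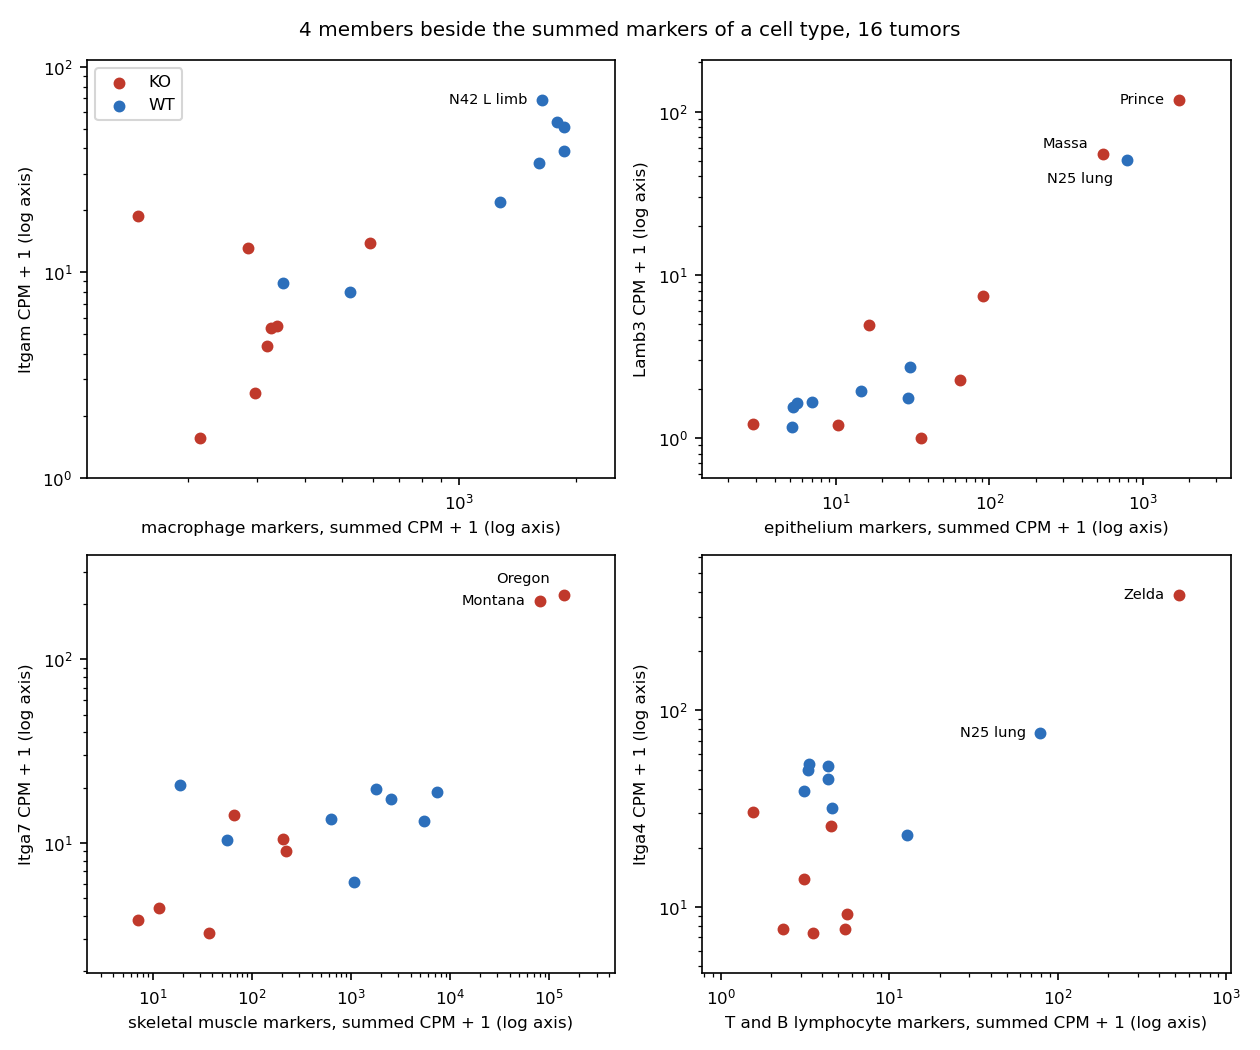
Each panel plots the CPM + 1 of 1 gene in the 16 tumors against the summed CPM + 1 of markers of 1 cell type, both on log axes, with KO in red and WT in blue. The highest tumors for *Lamb3* (Prince, Massa, N25 lung), *Itga7* (Oregon, Montana) and *Itga4* (Zelda, N25 lung) also had the highest sums of epithelium, skeletal muscle and lymphocyte markers, and 6 WT tumors were high for both *Itgam* and macrophage markers.

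The laminin chains differed in how widely they were present. Most were found in nearly every tumor, *Lama3* among them, while *Lamb3* was high in Prince, Massa and N25 lung and low elsewhere. *Lamc1*, *Lamb2*, *Lama4* and *Lamb1* make up the laminins of vessels and mesenchyme. *Lamc1*, the gamma chain of most laminins, ranged from 60.2 to 235 CPM in KO (median 137) and from 170 to 405 CPM in WT (median 245). All 8 KO tumors lay below the WT median, and the log2 fold change was -0.78 (SE 0.31, edgeR adjusted p = 0.151). *Lamb1* ranged from 15 to 138 CPM in KO (median 42.3) and from 61.2 to 416 CPM in WT (median 104), with N43 spine highest and 6 KO tumors below every WT tumor (-1.44, SE 0.47, adjusted p = 0.0846). Without Medusa it was -1.84 and past the threshold (adjusted p = 0.0367). *Lamb2* spanned 60.2 to 321 CPM in KO and 97.2 to 316 CPM in WT (-0.26, SE 0.34, adjusted p = 0.691). *Lama4*, the alpha chain of vessel walls, spanned 22.8 to 349 CPM in KO and 90.5 to 217 CPM in WT (-0.43, SE 0.43, adjusted p = 0.593). *Lama2*, the alpha chain of the muscle basement membrane, spanned 10.4 to 152 CPM in KO and 6.02 to 227 CPM in WT (-0.53, SE 0.62, adjusted p = 0.649). *Lama1*, mainly an embryonic chain, was at 97.1 CPM in Zelda and 81.2 CPM in N43 spine and spanned 0 to 43 CPM elsewhere (-0.53, SE 0.93, adjusted p = 0.776).

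*Lama3* and *Lamb3* are laminin chains of stratified and glandular epithelium. *Lamb3* was at 116 CPM in Prince, 53.5 CPM in Massa and 49.1 CPM in N25 lung, and at most 6.43 CPM in the other 13 tumors. The Massa value rests on 24 counts. *Lama3* was at 139 CPM in N25 lung and spanned 8.06 to 72.7 CPM elsewhere, with Montana second. Their log2 fold changes were 1.72 (SE 1.38, edgeR adjusted p = 0.482) for *Lamb3* and -0.15 (SE 0.53, adjusted p = 0.896) for *Lama3*. The values depended on N25 lung: without it *Lama3* was at 0.53 and *Lamb3* at 4.88, the latter past the threshold (adjusted p = 0.0378). Epithelium markers summed to 1724 CPM in Prince, 788 CPM in N25 lung and 549 CPM in Massa and to at most 90.0 CPM elsewhere, and their part was not tested. *Lama5*, the widespread alpha chain of mature basement membranes, was at 344 CPM in Prince and spanned 12.1 to 254 CPM elsewhere (0.35, SE 0.68, adjusted p = 0.807). *Lamc3*, a gamma chain less widespread than *Lamc1*, was at 286 CPM in N215 R hind limb, 264 CPM in N43 spine and 86.7 CPM in Prince and spanned 0 to 47.0 CPM in the other 13 (-2.24, SE 1.07, adjusted p = 0.221).

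Compared per kb of exon within each tumor, the alpha subunit that dominated the integrins changed from tumor to tumor. *Itgav* led in 4 WT tumors and *Itga10* in the WT tumors N42 L limb and N43 pelvis, while *Itga9* led in N215 R hind limb and *Itga8* in N25 lung. In KO the leading subunit was *Itga10* in Medusa and Ohio, *Itga7* in Montana and Oregon, *Itga6* in Prince, *Itga4* in Zelda, *Itga11* in Grilka and *Itga8* in Massa. *Itga10* made up 82.2% of the summed CPM per kb of all alpha subunits in Ohio, and *Itga6* 49.6% in Prince. The beta side was more uniform, with *Itgb1* leading in 13 tumors and *Itgb5* in Medusa, N43 spine and N43 pelvis. Among the laminins, *Lamb2* led the beta chains in 14 tumors and *Lamc1* was above *Lamc3* in 14. *Lama4* led the alpha chains in 8 tumors and *Lama5* in 6, with *Lama1* first in Zelda and *Lama2* in N43 spine. Massa and Grilka, with 222 and 371 counts over all alpha subunits, give these shares with little precision.

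The tumors of N42 show how far these genes vary within 1 mouse. The median standard deviation of log2 CPM over the 34 genes was 0.47 among the 4 tumors of N42, 1.03 between the 4 WT mice and 1.57 among the 8 KO tumors, against 0.30, 0.53 and 1.11 over all genes tested. The spread was larger in KO than in WT for 30 of the 34, and for 90.4% of all genes tested. A range of over 5-fold within N42 was seen for 7 of the 36 genes. *Lama2* was at 6.02 CPM in its femur tumor and 135 CPM in its pelvic tumor, and *Lamc3* at 2.73 CPM and 47.0 CPM in the same tumors. Between the 2 tumors of N43, *Itga8* was at 84.8 CPM in the spine and 3.41 CPM in the pelvis, *Lamb1* at 416 and 61.2 CPM, *Lama1* at 81.2 and 5.36 CPM, and *Lamc3* at 264 and 16.3 CPM.

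Chains that assemble with each other, and the laminin chain *Lama2* with the receptor subunit *Itga7*, were compared over the 12 mice, with the counts of each mouse summed. Of 12 pairs 4 were correlated at an adjusted p under 0.05 (Pearson's r of log2 CPM, two-sided permutation test, Benjamini-Hochberg over the 14 pairs planned). *Itgam* and *Itgb2* had an r of 0.77 (permutation p = 0.00289, adjusted p = 0.0240) and a Spearman's rho of 0.79 (permutation p = 0.00343, adjusted p = 0.0480), and r was 0.77 without the 2 mice farthest from the median of *Itgam*. *Itgav* and *Itgb5* had an r of 0.79 (permutation p = 0.00343, adjusted p = 0.0240) and a rho of 0.73 (permutation p = 0.00973, adjusted p = 0.0616), with r at 0.68 without the 2 farthest mice. The other 2 were *Lama3* with *Lamb3* (r 0.72, rho 0.71) and *Lamb1* with *Lamc1* (r 0.69, rho 0.61). Both had an adjusted permutation p of 0.0324 for r, and for rho it was 0.0616 and 0.105. Within the 8 KO mice 0 of the 12 pairs passed (exact permutation test), and 1 pair had an unadjusted p under 0.05, *Itgav* with *Itgb5* at r 0.85. That r was 0.30 without Massa and Medusa, the 2 KO mice farthest from the median of *Itgav*. Without Massa, Prince and N25 lung 0 passed as well, and 4 had an unadjusted p under 0.05. Without these tumors r was 0.48 for *Lama3* with *Lamb3* (permutation p = 0.195, adjusted p = 0.303) and 0.79 for *Lamb1* with *Lamc1* (permutation p = 0.00363, adjusted p = 0.0508). The r of *Itgam* with *Itgb2* was 0.75 without them (permutation p = 0.0170, adjusted p = 0.116). *Itga6* and *Itgb4* (r 0.51, permutation p = 0.0921, adjusted p = 0.156), *Itga5* and *Itgb1* (r 0.23, permutation p = 0.470, adjusted p = 0.470) did not pass, and *Itgav* and *Itgb6* had a negative r of -0.54 (permutation p = 0.0673, adjusted p = 0.135). The remaining 5 pairs, *Lama2* with *Itga7* among them, had an r between 0.34 and 0.49.

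Other genes of the pathway were examined in 3 lists. Of the 28 tested adaptors that bind integrin tails or carry their signal, such as talins, kindlins and focal adhesion kinase, 0 passed the edgeR threshold, 1 was higher and 2 were lower at an unadjusted p under 0.05, and the median log2 fold change was -0.10. Of 16 tested integrin ligands other than collagens and laminins, 3 were lower in KO and none higher, with a median of -1.36. These were *Tgfbi*, a secreted matrix protein (28.1 to 77.8 CPM in KO and 81.1 to 185 CPM in WT, log2 fold change -1.75, SE 0.25, adjusted p = 0.00201), *Postn*, the periostin of bone and tendon matrix (41.1 to 837 and 369 to 6616 CPM, -3.22, SE 0.76, adjusted p = 0.0261), and *Fbn1*, the fibrillin of microfibrils (40.1 to 391 and 243 to 926 CPM, -1.71, SE 0.46, adjusted p = 0.0434). The KO and WT values of *Tgfbi* did not overlap. Of 18 tested partners of laminin in the basement membrane, 1 was lower, the heparan sulfate proteoglycan *Sdc1* (9.79 to 73.5 and 67.6 to 190 CPM, -1.86, SE 0.40, adjusted p = 0.0159), and the median was -0.46. In all, 4 of these 62 genes were called, all lower, where edgeR called 4.01% of all genes tested and 2.15% as lower. At an unadjusted p under 0.05 it took 9.75% of all genes as lower and 13.3% as higher. DESeq2 called 18 of the 64 with an adjusted p, 12 as lower and 6 as higher. Of all genes it called 12.5%, 4.77% as lower and 7.76% as higher, so the share called higher was close to the background. By list these were 2 adaptors (1 lower, 1 higher), 7 ligands (5 lower, 2 higher) and 9 basement membrane partners (6 lower, 3 higher). The 6 higher were *Ptk2* (focal adhesion kinase), the ligands *Vtn* (vitronectin) and *Icam2*, the collagen IV chains *Col4a5* and *Col4a6*, and *Bcam*. *Bcam* is a laminin receptor outside the integrin family. edgeR gave *Ptk2* 0.68, *Vtn* 3.20, *Icam2* 0.25, *Bcam* 0.09 and *Col4a5* -0.18, none past the threshold, and did not test *Col4a6*. *Icam2*, *Col4a5*, *Col4a6* and *Bcam* were highest in a WT tumor, at 30.8, 130, 47.7 and 212 CPM. Their highest KO values were 24.5, 71.4, 20.1 and 138 CPM. Only *Tgfbi* was called by limma-voom in a fit with a random effect of the mouse, and none of the 62 with the counts summed per mouse.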

How the data were processed

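RNA of 16 mouse osteosarcomas had been depleted of ribosomal RNA and sequenced for 50 cycles from one end. The authors aligned the reads with Novoalign 2.08.01 to mm10 and its splice junctions, counted them per gene with USeq 8.8.8 and deposited raw counts, without normalization. Up to 50 alignments per read were allowed, and the best were kept. The strand used in counting is not given in the sources used here. Genes with fewer than 6 counts in all are not in the table.

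All 16 count columns were matched to samples by their labels. edgeR 4.0.16 (R 4.3.3) was run on all counts with TMM factors, filterByExpr (minimum count 10, minimum total 15), glmQLFit and glmQLFTest, with Benjamini-Hochberg adjustment over the 15413 genes that passed and a threshold of 0.05. All tests were two-sided. CPM are counts over the TMM-scaled library size, and log2 CPM used a prior count of 2. Levels per kb were divided by the exon length in GENCODE vM21, on GRCm38, which is the genome of mm10. Floors of 3 counts cover counting error only. DESeq2 1.42.0 and limma 3.58.1 (voom, with statmod 1.5.0) were alternatives, and Python 3.11 with scipy gave the permutation tests with 100000 resamples. The fits were tested on simulated counts drawn independently for each tumor. The simulation held no mouse effect, so it cannot show how the fits behave with several tumors per mouse. The genes, role groups, pathway and marker lists were chosen with earlier results of these data known.

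The symbol rule found 37 genes, and 1 of them, with the 2 chain pairs that hold it, is not reported here. It stayed in the fit over all genes and in the adjustment over pairs. Every other integrin and laminin gene is named. Values in full go to genes past the threshold, to the 3 most abundant of each role group per kb, and to genes at over 5 times their median in 1 tumor with at least 50 counts. From the pathway lists, genes past the threshold are named. The groups share no replicate numbers. Promoter sequences came from RefSeq. Protein sequences were not used here.

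The lists of osteoclast, neutrophil, smooth muscle, endothelial and Schwann cell markers gave 0, 0, 0, 0 and 1 genes past the threshold. Osteoclast markers summed to 29.0 to 1951 CPM in KO and 64.3 to 8900 CPM in WT, and endothelial markers to 193 to 1147 CPM and 282 to 2129 CPM. Smooth muscle markers summed to 175 to 6099 CPM and 416 to 1144 CPM, and Schwann cell markers to 11.9 to 647 CPM and 15.1 to 174 CPM.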

Additional observations from a re-analysis of the deposited data

Results flagged for a closer look

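In each gene and each group of 8 tumors, the gap between the most extreme tumor and its neighbor was set against the whole range of log2 CPM (Dixon's test, critical value 0.526). With independent values chance marks about 1 in 20 groups, and 11 of 72 were marked. Several WT tumors came from the same mouse, N42 or N43, so that rate does not hold for the WT groups. Of these, 7 concern N25 lung as the highest WT tumor: *Itga2b* at 30.1 CPM (others up to 9.41), *Itga6* at 132 CPM (up to 51.9), *Itgae* at 7.75 CPM (up to 1.59), *Itgal* at 54.9 CPM (up to 9.90), *Itgb6* at 67.7 CPM (up to 4.26), *Lama3* at 139 CPM (up to 36.3) and *Lamb3* at 49.1 CPM (up to 1.70). The KO tumor Zelda was marked as the highest for *Itga4*, at 383 CPM against at most 29.4 CPM in the other 7, and for *Itgad*, at 28.0 CPM against at most 1.27 CPM. Marked as lowest in WT were N215 R hind limb for *Itgb2*, at 14.3 CPM against at least 38.9 CPM, and N42 R femur for *Lama2*, at 6.02 CPM against at least 54.6 CPM.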

How the results depend on the processing

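*Itgam* was lower in KO under all 31 alternatives (log2 fold change -3.18 to -1.71) and past the threshold in 11 of them (adjusted p 0.00451 to 0.617). With all libraries thinned to the smallest total, *Itgam* missed the threshold (-2.16, edgeR adjusted p = 0.0580). In that fit *Itga5* was the 1 gene past it (-1.38, edgeR adjusted p = 0.0480). The number of integrin and laminin genes past the threshold, 1 with the chosen settings, was 6 with DESeq2 (*Itga4*, *Itga5*, *Itgam*, *Itgav* and *Lamb1* lower, *Lamb3* higher; 12.5% of all genes were called), 4 without the N25 and N215 tumors (9.46% of all genes), and 0 with counts summed per mouse, with limma-voom and the mouse as a random effect, without the N42 tumors, with total count or ribosomal RNA share as a covariate, without Montana and Oregon, without Prince and Grilka, and with Medusa and Ohio as the only KO tumors. It ranged from 0 to 4 when single tumors were left out. The pathway genes past the threshold, 4 with the chosen settings, numbered 18 with DESeq2, 12 without N25 and N215, 2 without Montana and Oregon, 1 with limma-voom and with the total count covariate, and 0 with summed counts, without N42 and with the ribosomal RNA covariate, and 2 to 7 when single tumors were left out (7 without Zelda, 2 without N43 spine, N42 R pelvis or N42 L shoulder). The median log2 fold change ranged from -0.64 to -0.31 over single tumors left out and was -0.41 with the chosen settings. The other alternatives gave -0.74 (Medusa and Ohio only) to -0.051 (total count covariate), with -0.24 for the ribosomal RNA covariate and -0.25 without Massa and Grilka. The number of correlated pairs, 4 of 12, was 0 within KO and 0 without Massa, Prince and N25, and 0 to 4 when single mice were left out (0 without Massa, Prince, N43 or N42, 1 without Medusa, 2 without Grilka or N25). Leaving out Massa and Grilka, merging overlapping genes and leaving out Massa, Prince and N25 were chosen after seeing the data. The causes of these changes were not tested. No paired analysis was possible because KO and WT tumors came from different mice.

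The fitted log2 fold change kept its sign under every alternative for 13 of the 34 genes. For the other 21, the values of opposite sign were, with DESeq2, *Itga7* -0.75, *Itga2b* -1.03, *Itga8* 0.36, *Itga4* -1.45 and *Itga10* -1.46. Counts summed per mouse gave *Lamb2* 0.065, *Itga2* -0.11, *Itgax* -0.40, *Itga2b* -0.24, *Itgal* -0.35 and *Lama5* -0.27. limma-voom gave *Lamb2* 0.046, *Itga2* -0.38, *Itga7* -0.28, *Itgax* -0.34, *Itga2b* -0.65, *Itgal* -0.081, *Lama5* -0.30, *Itgb6* -0.27 and *Itga4* -0.78. Without N42 they were *Lamb2* 0.13, *Itga2* -0.29, *Itgax* -0.55, *Itga2b* -0.32, *Itgal* -0.33 and *Lama5* -0.30. Without N25 and N215 they were *Itga1* 0.024, *Itgb7* 0.029, *Lama3* 0.70 and *Itga8* 0.16. The total count covariate gave *Lamb2* 0.25, *Itgb3* 0.29, *Itgb8* 0.32, *Itgb7* 0.067 and *Lama1* 0.49, and the ribosomal RNA covariate *Lamb2* 0.0081, *Itgb7* 0.11, *Lama3* 0.13, *Lama5* -0.17 and *Lama1* 0.91. Without Montana and Oregon they were *Itga7* -1.06, *Itgb7* 0.0080 and *Lama5* -0.038, and without Prince and Grilka *Itgb7* 0.045. With Medusa and Ohio only they were *Lamb2* 0.0096, *Lama4* 0.53, *Itgb3* 0.60, *Itga7* -0.33, *Itga2b* -0.60, *Itgal* -1.0, *Lama5* -0.64, *Itgb6* -3.49, *Itgb4* -2.32, *Lamb3* -5.09, *Itga6* -0.74 and *Itga4* -1.32. Leaving out single tumors gave ranges across 0 for *Itga2* (-0.25 to 0.36), *Itgax* (-0.45 to 0.69), *Itga2b* (-1.11 to 0.76), *Itgal* (-0.85 to 1.07), *Lama3* (-0.42 to 0.53), *Lama5* (-0.11 to 0.77), *Itga6* (-0.066 to 1.24), *Itga8* (-1.82 to 0.20), *Itga4* (-1.70 to 0.59) and *Itga10* (-1.65 to 1.23).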
